A study of Mus musculus with 4 samples.

Results

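The genes described here are 10 stress and immediate early genes outside the AP-1 family: the transcription factors Egr1, Klf4, Nr4a1 and Atf3, the early response genes Ier2, Ier3 and Btg2, and the feedback inhibitors Dusp1, Zfp36 and Socs3. They were chosen by name, from earlier results on these libraries in which such genes differed, and are 10 of the 27998 genes in the count tables. The difference between the libraries is therefore what the genes were selected on, and every level and ratio below is a description of the 4 libraries. All 10 genes had UMIs in every library. The tissue was thymic lobes of E13 to E13.5 embryos, digested with trypsin and profiled by single-cell RNA sequencing, and dams received injections on days E8, E9 and E10 of pregnancy. The groups were Tbx1+/+ embryos exposed to carrier, which was 5% ethanol, and Tbx1neo2/neo2 embryos exposed to the same carrier, to 200 µl of minoxidil at 0.55 mg/ml, or to 90 µl of PGE2 at 3.6 ng/µl. The Tbx1neo2/neo2 genotype is a model of 22q11.2 deletion syndrome with a hypoplastic thymus, in which a neomycin cassette within an intron of Tbx1 lowers the transcript and leaves the exons in place. There was 1 library per condition, lobes were pooled for the hypoplastic tissues, and the number of embryos behind each library was not given in the sources used here.

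Immediate early genes are transcribed within minutes of a stimulus such as a growth factor, a cytokine, stretch or heat, without new protein synthesis, because the factors that bind their promoters are already present in the cell. Their transcripts are short-lived, and several of the proteins they encode, among them phosphatases, RNA-destabilizing proteins and cytokine signaling inhibitors, shut down the same pathways. In the embryonic thymus these pathways carry signals between the mesenchyme, which supplies growth factors, and the epithelium, and tissue dissociation with enzymes is also known to induce such genes in single-cell preparations.

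A shared class of promoter element is the cAMP response element (CRE), the site bound by CREB and ATF proteins, and it was looked for because Atf3 itself is a factor of that family and because PGE2 receptors signal through cAMP. RefSeq promoter windows (GRCm38.p6, the same coordinates as mm10) were found for 8 of the 10 genes, all but Egr1 and Ier2, and the 250 bases before each start site were searched on both strands. The full CRE (TGACGTCA) was present in Btg2 and Dusp1 and in 1.55% of all 32851 windows of this length. The core site (TGACG), of which each full CRE holds 2 overlapping copies, was present in Klf4, Nr4a1, Atf3, Btg2 and Dusp1 and in 17.8% of all windows. The CArG box, the site of serum response factor, was present in Zfp36 alone among the 8 and in 1.47% of all windows, the STAT site (TTCNNNGAA) in Zfp36 and Socs3 and in 7.02%, and the AP-1 site (TGANTCA) in none of the 8 and in 6.75%. All 250 bases of the Zfp36 window lie within exons of the GENCODE annotation, as do 77 of those of Socs3, 47 of Dusp1 and 29 of Ier3. The last 7 bases of the Atf3 window are also exonic, and they hold its only core site. The following 4 windows are printed 5′ to 3′ to set the genes with the most CRE letters beside Ier3, whose window held none of the 5 motifs. The windows of Zfp36 and Socs3 also lacked the CRE and its core, and no link between letters and levels was tested. Capitals mark the full CRE and its core, on either strand, so that CGTCA is the core read from the other strand. Each is limited to the stretch outside annotated exons.
Btg2 (chr1:134079156-134079405, minus strand, 250 bases): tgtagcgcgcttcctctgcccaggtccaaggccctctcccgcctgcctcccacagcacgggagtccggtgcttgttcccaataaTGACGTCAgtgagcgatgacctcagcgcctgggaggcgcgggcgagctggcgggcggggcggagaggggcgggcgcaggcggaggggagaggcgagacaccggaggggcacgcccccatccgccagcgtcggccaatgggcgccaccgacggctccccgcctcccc
Dusp1 (chr17:26508520-26508722, minus strand, 203 bases): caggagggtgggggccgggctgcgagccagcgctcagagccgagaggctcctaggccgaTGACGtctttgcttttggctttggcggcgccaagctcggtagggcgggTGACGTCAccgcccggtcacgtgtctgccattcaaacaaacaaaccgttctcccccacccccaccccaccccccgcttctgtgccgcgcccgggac
Nr4a1 (chr15:101266596-101266845, plus strand, 250 bases): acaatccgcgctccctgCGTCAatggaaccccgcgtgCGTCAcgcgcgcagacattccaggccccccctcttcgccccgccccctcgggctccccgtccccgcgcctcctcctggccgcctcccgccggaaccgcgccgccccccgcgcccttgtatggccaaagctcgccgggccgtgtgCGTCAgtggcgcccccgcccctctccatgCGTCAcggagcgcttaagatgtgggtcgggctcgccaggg
Ier3 (chr17:35821463-35821683, plus strand, 221 bases): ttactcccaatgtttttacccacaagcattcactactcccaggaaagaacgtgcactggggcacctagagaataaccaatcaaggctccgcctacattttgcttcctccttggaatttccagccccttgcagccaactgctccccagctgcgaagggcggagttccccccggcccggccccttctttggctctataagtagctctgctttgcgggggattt

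The full CRE began 166 bases before the start site in Btg2 and 143 bases before it in Dusp1. Nr4a1 held 4 core sites, the nearest 40 bases and the farthest 233 bases before the start. A match of letters is a description of the sequence and not of binding.

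For a level, the UMIs of all cells in 1 class and library were added up and scaled to 1000000 UMIs of that class (CPM), with exact Poisson 95% intervals that cover counting error alone. The 4 libraries are given in the order Tbx1+/+ carrier, Tbx1neo2/neo2 carrier, minoxidil and PGE2 throughout, and minoxidil and PGE2 stand for the drug-exposed Tbx1neo2/neo2 libraries. They held 11908, 11364, 3362 and 4471 cells, of which 11474, 10683, 3201 and 4152 were kept, with medians of 21125, 14108, 41084 and 34790 UMIs per kept cell, so the Tbx1neo2/neo2 carrier library was the shallowest per cell. Pairs of libraries shared 4 to 35 cell barcodes, at most 0.447% of the smaller library. Clusters that were named from marker genes were joined into mesenchymal, epithelial, hematopoietic and endothelial classes, with erythroid cells as the class with little expression of the genes. Most erythroid UMIs were hemoglobin transcripts, so erythroid levels and shares below are not matched to those of the other classes. The defining markers of each class, 9 or 10 genes, were detected in that class in every library, but all 9 mesenchymal markers were also detected in the other classes, so detection alone does not check the identity of a class. Mesenchymal cells made up 25.0, 61.5, 31.3 and 21.1% of the kept cells, and sums over all cells were not compared for that reason. Tbx1 itself was at 3.30, 2.28, 3.61 and 2.02 CPM in mesenchymal cells and 2.35, 1.11, 1.37 and 0.315 CPM in epithelial cells. It was at 0.671, 1.31, 0.975 and 0.309 CPM in hematopoietic and 11.7, 16.9, 19.1 and 24.85 CPM in endothelial cells. There the Tbx1neo2/neo2 carrier library was above the Tbx1+/+ carrier library, with overlapping intervals in endothelial cells. UMIs do not tell the hypomorphic allele from the wild-type one, and this is no full check of the genotype. Gene positions below are from the GENCODE annotation of GRCm38. Xist, transcribed from the inactive X chromosome of females, was at 229.8, 37.4, 808 and 0.843 CPM in mesenchymal cells of the 4 libraries, and the sexes of the pooled embryos were not given. Its level also differed between classes of 1 library, and in the Tbx1neo2/neo2 carrier library it was 251 in epithelial, 298 in hematopoietic and 74.6 CPM in endothelial cells. With 1 library per condition, no test across embryos was possible, and condition, embryo, sex, digestion and library cannot be told apart.

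The first comparison asked how the hypomorphic genotype differed from the control under the same carrier. The Tbx1neo2/neo2 carrier library had the lower level of 9 of the 10 genes in mesenchymal cells, and the same direction was seen in the other classes, with Atf3, Socs3 and Zfp36 the farthest apart in mesenchymal cells. The call lower or higher needed a 1.5-fold ratio or more and Poisson intervals that did not overlap, and all genes with at least 20 UMIs in the pair of libraries were compared. In mesenchymal cells 9 of the 10 genes were lower, where 12% of the 16120 genes compared were lower, and 0 were higher, where 11.9% were higher. In epithelial cells 9 were lower against 4.75% of all genes, and 0 were higher against 3.82%. In hematopoietic cells 8 were lower against 2.4%, and 0 were higher against 10.9%. In endothelial cells 8 were lower against 3.57%, and 0 were higher against 4.03%. That made 34 of the 40 pairs of gene and class. Since the genes were selected on this difference, nothing is read from these shares. The median log2 ratio of the 10 genes was -2.10 in mesenchymal, -0.88 in epithelial, -0.77 in hematopoietic and -0.80 in endothelial cells, while the median over all genes compared was 0.01, -0.07, 0.01 and -0.02. The shift was thus present in all 4 classes and had its lowest median in mesenchymal cells, and the difference between the classes was not tested. The mesenchymal cells of the carrier libraries also fell into different clusters. Cluster 3 (pericyte-like) held 1266 of 2865 such cells in the Tbx1+/+ carrier and 471 of 6572 in the Tbx1neo2/neo2 carrier library, and cluster 10 (chondrocyte-like) held 71 and 882. When the libraries were clustered without integration, 4 mesenchymal clusters of 2138, 1314, 1128 and 925 cells held 2133, 1305, 1128 and 911 cells of the Tbx1neo2/neo2 carrier library.

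**Figure D1:**
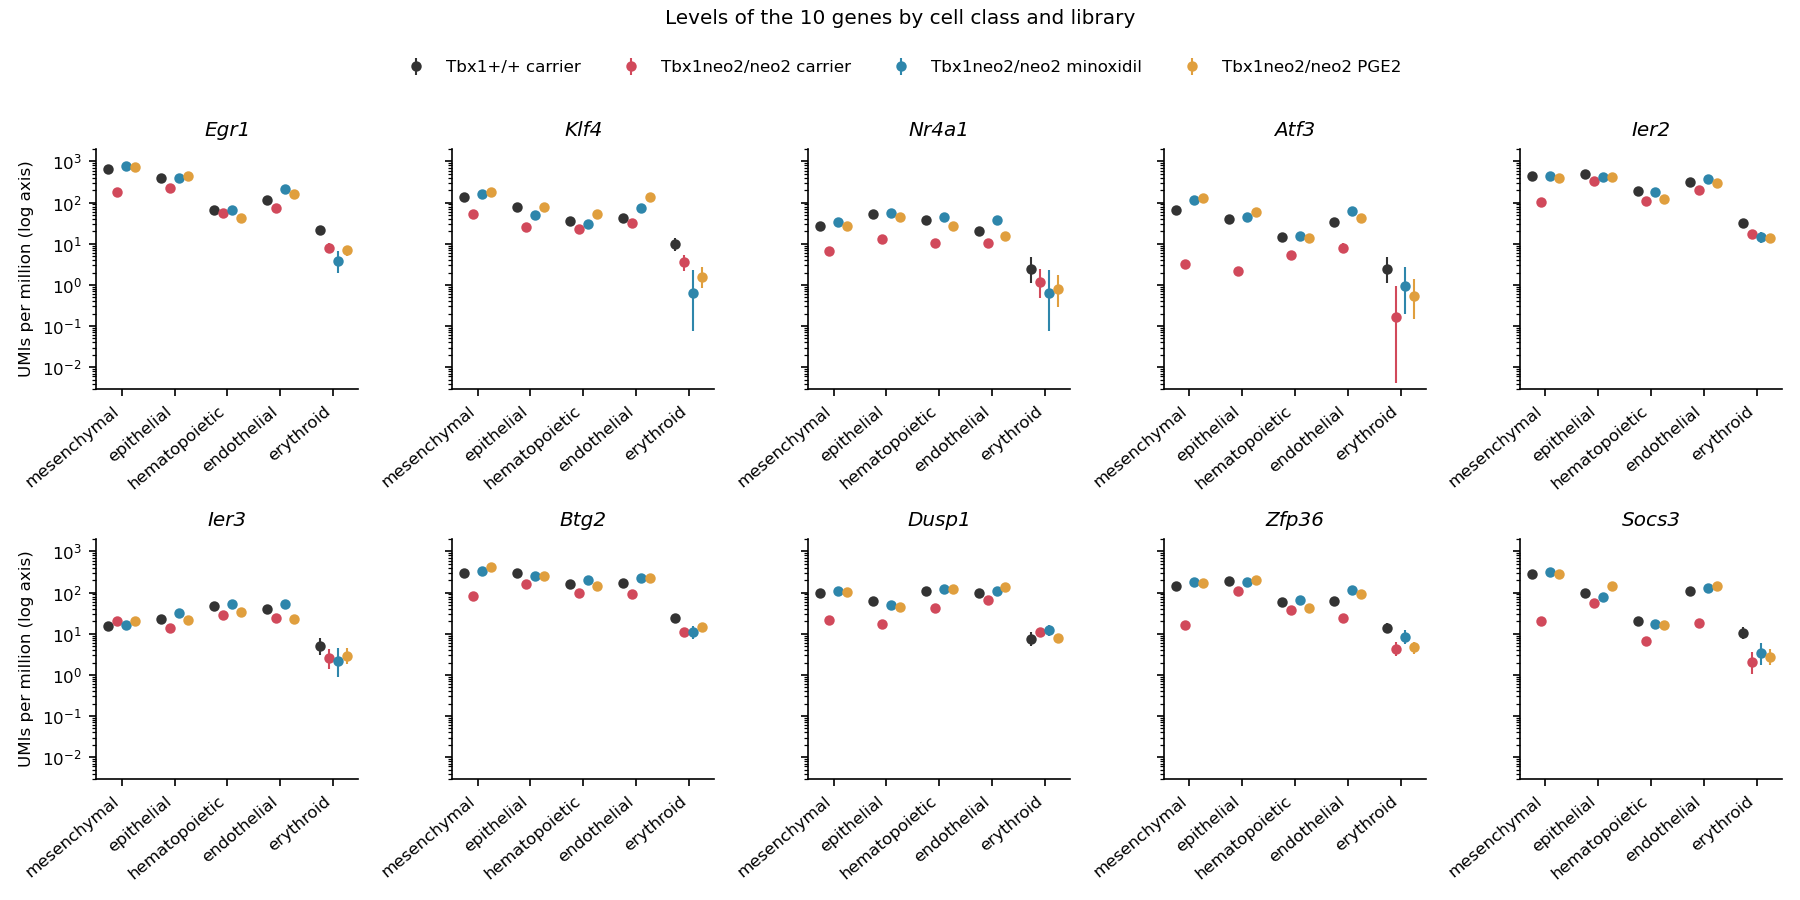
Level of each gene (CPM, log axis) in the 4 cell classes and in erythroid cells, with 1 point per library (black Tbx1+/+ carrier, red Tbx1neo2/neo2 carrier, blue minoxidil, yellow PGE2) and bars for the Poisson 95% interval. The Tbx1neo2/neo2 carrier point lies below the other 3 with its interval apart in 35 of the 40 pairs of gene and class, and the mesenchymal Atf3 values run from 3.28 to 131 CPM.

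Egr1 (ENSMUSG00000038418, chr18:34859823-34864984, plus strand) encodes a zinc finger transcription factor that is induced through ERK signaling and serum response factor. Its level was 660.4, 179.5, 758 and 743 CPM in mesenchymal cells of the 4 libraries and 385, 226, 394 and 441 CPM in epithelial cells. In both classes the Tbx1neo2/neo2 carrier library was lowest and the other 3 lay close together. The genotype ratio was 3.68-fold lower in mesenchymal cells, a log2 ratio of -1.88 (95% interval -1.91 to -1.85), and -0.77 (95% interval -0.80 to -0.74) in epithelial cells. Hematopoietic cells had little of it, at 66.0, 54.9, 67.5 and 42.1 CPM, and there the PGE2 library and not the Tbx1neo2/neo2 carrier library was lowest. Their genotype ratio of -0.27 (95% interval -0.35 to -0.18) was within 1.5-fold. This is a ratio of class sums, and cluster 11 held 301 of 2327 hematopoietic cells in the Tbx1+/+ carrier and 357 of 1149 in the Tbx1neo2/neo2 carrier library. Within clusters of all classes, Egr1 log2 ratios ran from -2.24 to -0.53, the last in cluster 11. With PGE2 against the Tbx1neo2/neo2 carrier library, the lowest cluster ratio was -0.085. Endothelial cells stood at 118, 72.3, 212 and 158 CPM, with the minoxidil library highest. Against the Tbx1neo2/neo2 carrier library, mesenchymal Egr1 was 4.22-fold higher with minoxidil and 4.14-fold higher with PGE2. Egr1 was detected in 87.9, 46.3, 88.3 and 88.1% of mesenchymal cells thinned to 5000 UMIs each and in 5.13, 2.77, 2.14 and 1.19% of erythroid cells thinned alike. Mesenchymal cells with the transcript held a mean of 3.79, 1.80, 4.29 and 4.30 UMIs of it, so both the share of positive cells and the UMIs per positive cell were lowest in the Tbx1neo2/neo2 carrier library.

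Klf4 (ENSMUSG00000003032, chr4:55527143-55532466, minus strand) encodes a Krüppel-like factor that restrains proliferation in epithelia and vessel walls. Mesenchymal cells held 138, 52.2, 162 and 177 CPM, epithelial cells 76.3, 26.2, 48.8 and 77.7, hematopoietic cells 36.3, 22.4, 29.7 and 51.9 and endothelial cells 42.6, 32.5, 72.3 and 133 in the 4 libraries. In each class the Tbx1neo2/neo2 carrier library was lowest. The genotype log2 ratio was -1.40 (95% interval -1.45 to -1.35) in mesenchymal, -1.54 (95% interval -1.64 to -1.45) in epithelial and -0.70 in hematopoietic cells, and it was within 1.5-fold in endothelial cells at -0.39. In the endothelium the drug libraries also parted from each other, where PGE2 was at 133 CPM (121 to 145) and minoxidil at 72.3 CPM (65.5 to 79.6), both above the Tbx1+/+ carrier library. In epithelial cells the minoxidil library, at 48.8 CPM, was below the Tbx1+/+ carrier library, with a log2 ratio of -0.65 (95% interval -0.71 to -0.58). The share of thinned mesenchymal cells with Klf4 was 42.5, 18.6, 47.7 and 46.3%.

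Nr4a1 (ENSMUSG00000023034, chr15:101254269-101274795, plus strand), also named Nur77, is an orphan nuclear receptor that is induced by antigen receptor and cAMP signaling, and its promoter window held the 4 core sites printed above. It stood at 27.1, 6.49, 34.7 and 27.4 CPM in mesenchymal, 52.8, 13.1, 55.2 and 43.5 in epithelial and 37.3, 10.5, 44.4 and 27.3 in hematopoietic cells. All 3 classes were lowest, by several-fold, in the Tbx1neo2/neo2 carrier library. Log2 ratios for the genotype were -2.06 (95% interval -2.20 to -1.93), -2.01 (95% interval -2.14 to -1.88) and -1.83 (95% interval -2.01 to -1.66), and these intervals overlapped. In endothelial cells its 19.99, 10.6, 37.6 and 15.1 CPM gave overlapping intervals for the Tbx1neo2/neo2 carrier and PGE2 libraries. Minoxidil was 5.34-fold above the Tbx1neo2/neo2 carrier library in mesenchymal cells and 3.56-fold above it in endothelial cells, and PGE2 4.22-fold and 1.43-fold, of which the last was not called.

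Atf3 (ENSMUSG00000026628, chr1:191170296-191218039, minus strand), a basic leucine zipper factor of the ATF and CREB family that accumulates under amino acid shortage, DNA damage and cytokine signals, had the lowest genotype ratio of the 10 genes in mesenchymal and epithelial cells. Its level was 66.4, 3.28, 117 and 131 CPM in mesenchymal cells and 40.8, 2.22, 44.1 and 58.4 CPM in epithelial cells. Atf3 was thus low in the Tbx1neo2/neo2 carrier library in either class, while the drug libraries were at or above the Tbx1+/+ carrier library. The ratio was 20.2-fold lower in mesenchymal cells, a log2 ratio of -4.34 (95% interval -4.50 to -4.18), which placed Atf3 at rank 21 from the lowest of 16120 genes. In epithelial cells it was 18.4-fold lower, at rank 22 of 15800. Hematopoietic cells held 15.0, 5.45, 15.7 and 13.7 CPM and endothelial cells 34.4, 7.93, 63.2 and 41.6 CPM, with log2 ratios of -1.46 (95% interval -1.71 to -1.22) and -2.12 (95% interval -2.57 to -1.69). The locus overlaps Gm24748 on the other strand, and whether the counting used strand was not given in the sources used here. Atf3 was called lower in all 4 classes for the genotype and higher in all 4 for each drug. Mesenchymal cells were 35.6-fold higher with minoxidil and 39.8-fold higher with PGE2 than in the Tbx1neo2/neo2 carrier library. The order of the classes also differed, with mesenchymal cells highest in the Tbx1+/+ carrier and both drug libraries, and endothelial and hematopoietic cells highest, with overlapping intervals, in the Tbx1neo2/neo2 carrier library. After thinning to 5000 UMIs, 19.9, 1.26, 25.9 and 29.2% of mesenchymal cells held an Atf3 UMI, against 0.855, 0, 0.714 and 0.593% of erythroid cells, where 0 of 433 cells allows up to 0.693% by a limit of 3 counts of the total. At most 2 UMIs were found in 1 thinned mesenchymal cell of the Tbx1neo2/neo2 carrier library.

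Ier2 (ENSMUSG00000053560, chr8:84661331-84662852, minus strand) encodes a small nuclear protein that is induced by growth factors and affects cell motility. It was at 447, 102, 446 and 395 CPM in mesenchymal cells and 491, 339, 423 and 414 CPM in epithelial cells. Mesenchymal cells of the Tbx1neo2/neo2 carrier library had the lowest value by far, with a log2 ratio of -2.13 (95% interval -2.17 to -2.10), while epithelial cells of the same library were less than 1.5-fold below the control, at -0.54 (95% interval -0.56 to -0.51). The hematopoietic levels were 187, 107, 179 and 122 CPM and the endothelial ones 307, 201, 372 and 291 CPM. In both classes the control and minoxidil libraries were above the Tbx1neo2/neo2 carrier library, with genotype log2 ratios of -0.81 and -0.61. PGE2 was called higher than the Tbx1neo2/neo2 carrier library for Ier2 in mesenchymal cells alone, by 3.88-fold, and the ratio in the other 3 classes was between 0.19 and 0.54 on the log2 scale.

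Btg2 (ENSMUSG00000020423, chr1:134075170-134079120, minus strand) encodes an antiproliferative adaptor of the deadenylation complex and is a known target of p53 and cAMP. Its levels were 300.2, 82.4, 342 and 409.9 CPM in mesenchymal, 299, 161, 256 and 252 in epithelial, 159, 99.2, 201 and 145 in hematopoietic and 167, 91.1, 227 and 221 in endothelial cells. Btg2 was lowest in the Tbx1neo2/neo2 carrier library in each and was called lower in all 4 classes, with log2 ratios of -1.87 (95% interval -1.90 to -1.83), -0.90, -0.68 and -0.88. Minoxidil was higher than the Tbx1neo2/neo2 carrier library in all 4 classes, from 0.67 in epithelial to 2.06 in mesenchymal cells on the log2 scale. PGE2 was higher in all but hematopoietic cells, where the ratio was 0.55. The share of thinned mesenchymal cells with Btg2 was 58.8, 25.6, 59.5 and 62.5%.

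Ier3 (ENSMUSG00000003541, chr17:35821684-35822923, plus strand), also named Iex-1, encodes an early response protein that modulates survival and NF-κB and ERK signaling, and it was the 1 gene that did not follow the others in mesenchymal cells. Its mesenchymal level was 15.6, 20.2, 16.3 and 20.6 CPM, and the Tbx1neo2/neo2 carrier and PGE2 libraries overlapped there. The genotype log2 ratio was 0.37 (95% interval 0.26 to 0.49), within 1.5-fold and opposite in sign to the other 9 genes. The epithelial levels were 23.3, 13.5, 32.3 and 21.4, the hematopoietic levels 48.3, 29.1, 52.0 and 33.4 and the endothelial levels 39.9, 24.1, 52.5 and 22.4 CPM. In these 3 classes Ier3 was lower in the Tbx1neo2/neo2 carrier than in the Tbx1+/+ carrier library, with log2 ratios of -0.78 (95% interval -0.92 to -0.65), -0.73 (95% interval -0.84 to -0.62) and -0.73 (95% interval -1.01 to -0.45). Minoxidil was higher than the Tbx1neo2/neo2 carrier library in the same 3 classes by 2.38, 1.78 and 2.18-fold. PGE2 was higher in epithelial cells alone, by 1.58-fold, and in endothelial cells of that library Ier3 was as low as in the Tbx1neo2/neo2 carrier library. Hematopoietic and endothelial cells had the 2 highest levels of Ier3 in every library, but the intervals of these classes overlapped in the Tbx1neo2/neo2 carrier and minoxidil libraries. Endothelial and mesenchymal cells overlapped in the Tbx1neo2/neo2 carrier library, as did endothelial with epithelial and epithelial with mesenchymal cells in the PGE2 library.

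The last 3 genes encode inhibitors. Dusp1 (ENSMUSG00000024190, chr17:26505590-26562128, minus strand), also named MKP-1, encodes a nuclear phosphatase that inactivates p38, JNK and ERK. The annotated locus spans 56539 bases and overlaps other annotated genes on the same strand (AC122252.1 and AC122252.4), so its counts are uncertain. Its levels were 98.2, 21.4, 107 and 105 CPM in mesenchymal, 61.5, 17.3, 48.8 and 44.4 in epithelial, 111, 41.1, 124 and 124 in hematopoietic and 96.6, 67.2, 110.0 and 134 in endothelial cells. The Tbx1neo2/neo2 carrier library was lowest in each class, and the endothelial ratio was within 1.5-fold. The genotype log2 ratios were -2.20 (95% interval -2.27 to -2.13), -1.83 (95% interval -1.94 to -1.71), -1.43 (95% interval -1.52 to -1.34) and -0.53 (95% interval -0.69 to -0.36). Dusp1 was higher with each drug in all 4 classes, from 0.71 to 2.32 with minoxidil and from 0.997 to 2.29 with PGE2 on the log2 scale, with endothelial cells at the low end and mesenchymal cells at the high end of both. Its erythroid levels, 7.50, 10.8, 12.1 and 7.70 CPM, did not put the Tbx1neo2/neo2 carrier library lowest.

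Zfp36 (ENSMUSG00000044786, chr7:28376784-28380253, minus strand) encodes tristetraprolin, which binds AU-rich elements and speeds the decay of cytokine and early response transcripts. Like Atf3, it overlaps a gene on the other strand (Gm44710), so reads of the pair may not be told apart. In mesenchymal cells it was at 141, 16.6, 181 and 172 CPM, with the Tbx1neo2/neo2 carrier library 8.45-fold below the control, a log2 ratio of -3.08 (95% interval -3.16 to -3.00) and rank 88 from the lowest of all genes compared. The epithelial levels of 195, 106, 184 and 205 CPM gave a smaller ratio of -0.87 (95% interval -0.92 to -0.82). Hematopoietic cells held 57.6, 38.5, 65.0 and 41.8 CPM, and neither the genotype ratio of -0.58 nor the PGE2 ratio of 0.12 was called there. These are class sums, and cluster 11 held 301, 357, 115 and 117 of the 2327, 1149, 745 and 1195 hematopoietic cells. Within clusters of all classes, Zfp36 log2 ratios ran from -3.80 to -0.73 for the genotype and from 0.59 to 4.38 with PGE2 against the Tbx1neo2/neo2 carrier library. Endothelial cells held 63.5, 23.8, 115 and 92.1 CPM, a genotype log2 ratio of -1.42 (95% interval -1.68 to -1.16). The share of thinned mesenchymal cells with Zfp36 was 38.5, 6.74, 46.0 and 47.4%, while that of epithelial cells was 49.8, 32.5, 47.1 and 54.0%. The share in the Tbx1neo2/neo2 carrier library was thus far lower in mesenchymal than in epithelial cells.

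Socs3 (ENSMUSG00000053113, chr11:117966079-117970047, minus strand) encodes an inhibitor that STAT3 induces and that blocks JAK kinases bound to gp130. It was at 281, 20.1, 309 and 284 CPM in mesenchymal cells and 109, 18.0, 128 and 142 CPM in endothelial cells. The Tbx1neo2/neo2 carrier library was 13.9-fold and 6.07-fold below the control, with log2 ratios of -3.80 (95% interval -3.87 to -3.73) and -2.60 (95% interval -2.89 to -2.32), and mesenchymal Socs3 was at rank 32 from the lowest. Epithelial cells, at 98.8, 54.4, 79.7 and 144 CPM, and hematopoietic cells, at 20.9, 6.73, 17.6 and 15.9 CPM, had log2 ratios of -0.86 (95% interval -0.93 to -0.79) and -1.64 (95% interval -1.86 to -1.42). The minoxidil library had a mesenchymal level 15.3-fold above that of the Tbx1neo2/neo2 carrier library, but in epithelial cells the ratio of 0.55 was not called, and PGE2 gave 1.40 there. The share of thinned cells with Socs3 was 59.4, 7.80, 59.9 and 57.7% in mesenchymal and 39.7, 9.34, 39.0 and 36.4% in endothelial cells.

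The other comparisons asked how each drug-exposed library differed from the Tbx1neo2/neo2 carrier library, and since both share that library, their directions are not independent of each other or of the first comparison. With minoxidil, 9 of the 10 genes were higher in mesenchymal cells, where 12.6% of all genes compared were higher, and 0 were lower, where 11.4% were lower. The counts higher were 8 in epithelial cells against 3.88%, 8 in hematopoietic cells against 3.09% and 10 in endothelial cells against 5.26%. None of the 10 was lower with minoxidil in those classes, where 5.13, 12.4 and 3.4% of all genes were lower. With PGE2, 9 were higher in mesenchymal cells against 11.5%, 9 in epithelial cells against 3.37%, 5 in hematopoietic cells against 3.19% and 7 in endothelial cells against 5.45%. None was lower with PGE2, where 12.2, 5.81, 17.3 and 4.87% of all genes were lower in the same order. This was 35 of 40 pairs with minoxidil and 30 of 40 with PGE2. The median log2 ratio over the 10 genes was 2.23, 0.85, 0.93 and 1.43 with minoxidil and 2.18, 1.16, 0.88 and 1.20 with PGE2, while the median over all genes stayed between -0.07 and 0.03.

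Atf3, Dusp1 and Klf4 were the genes called higher with PGE2 in all 4 classes along with Socs3, and Atf3, Btg2, Dusp1, Nr4a1 and Zfp36 those called higher with minoxidil in all 4. The hematopoietic class held 5 of the 10 pairs not called with PGE2: Egr1 at -0.38, Ier2 at 0.19, Ier3 at 0.20, Btg2 at 0.55 and Zfp36 at 0.12 on the log2 scale. Of these, Egr1, Ier2, Ier3 and Zfp36 lay nearer to the Tbx1neo2/neo2 carrier than to the Tbx1+/+ carrier library in log2 ratio, and Btg2 lay nearer to the Tbx1+/+ carrier library, at -0.13. All are ratios of class sums, and the share of cluster 11 in the hematopoietic class differed between the libraries.

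Set against the Tbx1+/+ carrier library instead, which leaves the Tbx1neo2/neo2 carrier library out, the drug libraries had fewer calls in these genes. A pair that was not called is not shown to be alike, and this contrast was added after the values had been seen. With minoxidil 33 of 40 pairs were not called, and with PGE2 35 of 40. Of the 10 genes 1, 1, 0 and 5 were called in either direction with minoxidil in mesenchymal, epithelial, hematopoietic and endothelial cells, where 4.21, 7.58, 7.53 and 5.76% of all genes were called. With PGE2 the counts were 1, 0, 2 and 2, where 10.3, 10, 17.3 and 9.38% of all genes were called. Mesenchymal Atf3 was above the control in both drug libraries, with log2 ratios of 0.82 (95% interval 0.75 to 0.88) and 0.98 (95% interval 0.91 to 1.05). In endothelial cells of the minoxidil library, Atf3, Egr1, Klf4, Nr4a1 and Zfp36 were above the control, with log2 ratios of 0.88, 0.85, 0.76, 0.91 and 0.86. None of these 5 calls was kept when cells were thinned to 5000 UMIs, where the ratios were 0.74, 0.63, 0.77, 0.47 and 0.56, or when calls were made at 2-fold. In the PGE2 library endothelial Klf4 was above it, at 1.64 (95% interval 1.45 to 1.84). Below the control were Klf4 in epithelial cells with minoxidil, and with PGE2 hematopoietic Egr1 at -0.65, hematopoietic Ier2 at -0.62 and endothelial Ier3 at -0.83. Averaged over cells, endothelial Ier3 was at 0.227, and the count lower with PGE2 went from 3 to 0 when cells were thinned. The endothelial calls rest on 203, 240, 99 and 101 cells.

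Seen from the other side, the Tbx1neo2/neo2 carrier library was the lowest of the 4 with its interval below the other 3 for 9 of the 10 genes in mesenchymal, 10 in epithelial, 8 in hematopoietic and 8 in endothelial cells. The share of all genes in that position was 15.4, 5.67, 5.63 and 2.35%. The 5 exceptions among the 40 pairs were mesenchymal and endothelial Ier3, hematopoietic Egr1 and Zfp36, and endothelial Nr4a1. Egr1 in hematopoietic cells was lowest with PGE2 (40.4 to 43.9 CPM against 52.3 to 57.7 CPM in the Tbx1neo2/neo2 carrier library). These class sums join clusters whose proportions differed between the libraries.

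The same direction was found within single clusters. Of the clusters named and placed in the 4 classes, 13 had at least 50 cells in both carrier libraries. Egr1, Klf4, Nr4a1, Atf3, Ier2, Btg2, Dusp1, Zfp36 and Socs3 had a genotype ratio below 1 in 13 of 13. Nr4a1 and Zfp36 were called lower in all 13, Egr1, Atf3, Btg2, Dusp1 and Socs3 in 12, Ier2 in 11 and Klf4 in 9. Of all genes, 2.6, 4.36, 6.2, 3.57 and 4.28% were called lower in clusters 0, 8, 11, 13 and 17. For the other clusters that share is not given here. Since the genes were selected on this difference, nothing is read from these counts. The clusters were formed after integration, so cells of 1 cluster may differ in state between libraries. The range of log2 ratios was -4.67 to -1.46 for Atf3, -3.88 to -0.63 for Socs3 and -2.24 to -0.53 for Egr1. Cluster 6, a mesenchymal cluster led by Eln, Acta2 and Tagln and, of cartilage genes, Col9a3 and Matn4, held the lowest ratio of Egr1, Nr4a1, Ier2, Btg2, Zfp36 and Socs3. Ier3 was the exception here too, with a ratio below 1 in 10 of 13 clusters, called lower in 5 and higher in 2. In the drug comparisons 11 such clusters could be compared, and Dusp1 was called higher in 11 of 11 with each drug. With minoxidil, Nr4a1 and Atf3 were also called higher in 11, Egr1 and Zfp36 in 10, Klf4 and Btg2 in 9, Ier2 and Socs3 in 8 and Ier3 in 6, and Ier3 was lower in 2. With PGE2 the counts were 11 for Zfp36 and Socs3, 10 for Klf4, Nr4a1, Atf3 and Btg2, 9 for Egr1, 5 for Ier2 and 3 for Ier3, which was lower in 1. Of all genes, 3.0, 2.44, 3.78, 3.04, 4.19 and 5.26% were called higher with minoxidil in clusters 0, 1, 8, 9, 11 and 13. The shares higher with PGE2 were 2.56, 3.23 and 6.25% in clusters 1, 8 and 11, and those of the other clusters are not given here.

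**Figure D2:**
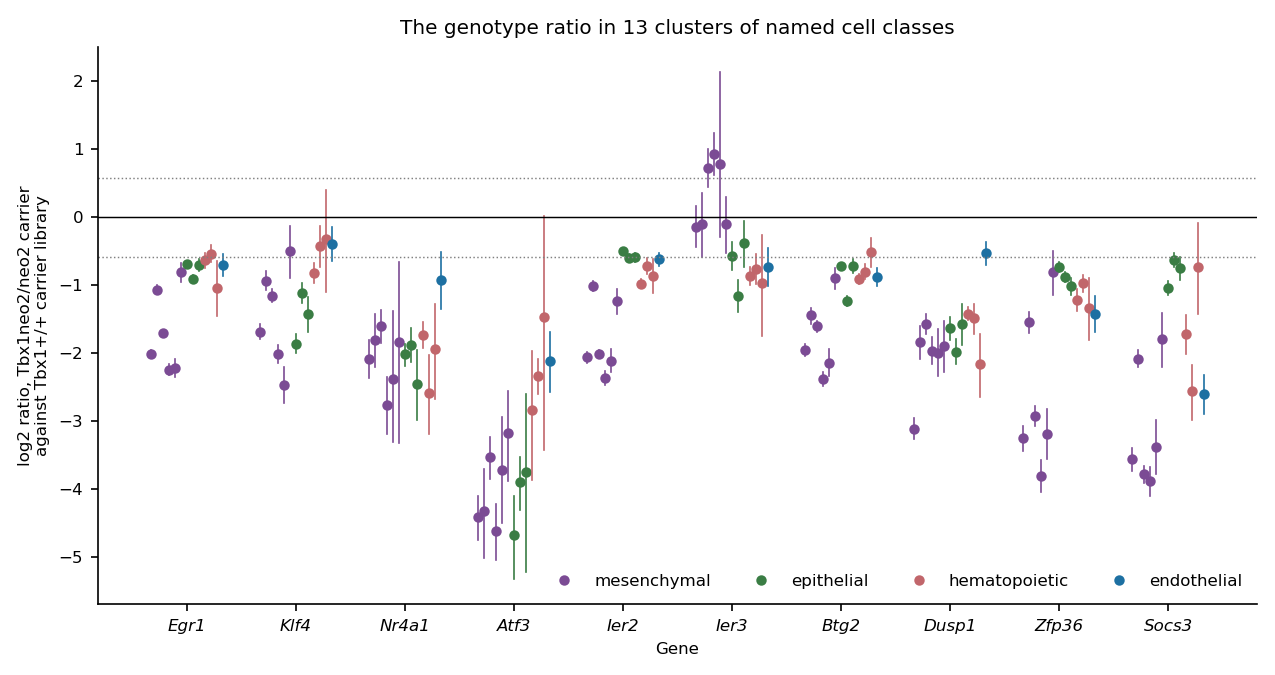
Log2 ratio of each gene, Tbx1neo2/neo2 carrier against Tbx1+/+ carrier library, in the 13 clusters with at least 50 cells in both, 1 point per cluster coloured by class, with lines for the 95% counting interval and dotted lines at 1.5-fold. All points of 9 genes lie below 0, down to -4.67 for Atf3, and the Ier3 points spread from -1.15 to 0.93.

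Counted per cell, the genes were detected together in fewer cells of the Tbx1neo2/neo2 carrier library. Each cell was thinned to 5000 UMIs, because the libraries differed in depth, and cells with fewer were left out (15, 137, 12 and 20 mesenchymal, 39, 78, 9 and 22 epithelial, 81, 189, 62 and 46 hematopoietic, 14, 58, 17 and 35 endothelial and 5, 29, 4 and 6 erythroid cells of the 4 libraries). UMIs of at least 3 of the 10 genes were found in 83.6, 21.6, 83.5 and 82.7% of mesenchymal, 78.5, 50.2, 74.5 and 80.4% of epithelial, 40.6, 23.3, 45.1 and 31.2% of hematopoietic and 65.1, 26.9, 69.5 and 68.2% of endothelial cells. This share was lowest in the Tbx1neo2/neo2 carrier library in each class. In erythroid cells the shares were 2.99, 0.462, 0 and 0.297%, where 0 of 140 cells allows up to 2.14% by the same limit. Hemoglobin made up 828400 to 902400 CPM of the erythroid sums. Thinned erythroid cells thus kept few other UMIs, and their shares are not a matched background. At least 5 of the genes were found in 47.3, 2.33, 52.6 and 53.9% of mesenchymal cells and in 37.0, 10.7, 29.2 and 37.4% of epithelial cells. The median mesenchymal cell held 4, 1, 5 and 5 of the 10 genes. Without thinning, Egr1 was found in 95.4, 68.0, 94.9 and 92.1% and Atf3 in 38.6, 4.18, 55.5 and 57.9% of mesenchymal cells, whose median depth was 16356, 13321, 30583 and 25338 UMIs, and in 7.11, 5.84, 8.33 and 7.29% and 2.09, 0.216, 1.39 and 1.17% of erythroid cells, whose median depth was 13767, 12088, 21378 and 22083 UMIs. The thinned share was lowest in the Tbx1neo2/neo2 carrier library for 9, 10, 7 and 9 of the 10 genes in the 4 classes.

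**Figure D3:**
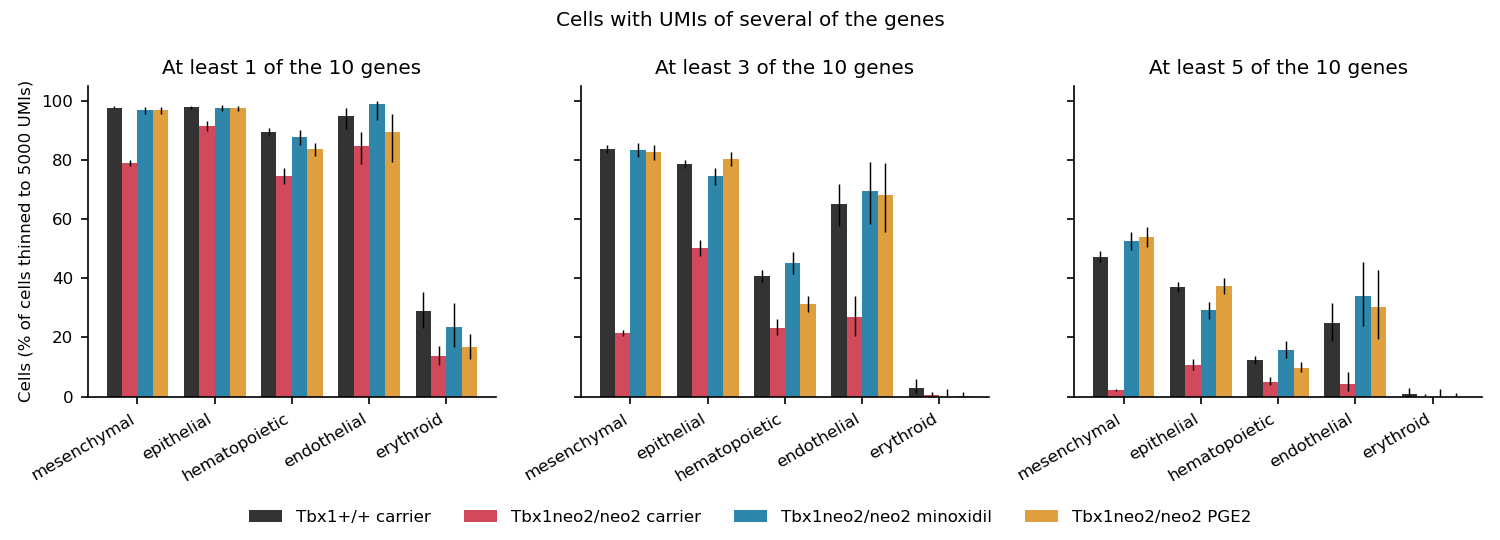
Share of cells (percent of cells thinned to 5000 UMIs) with UMIs of at least 1, 3 or 5 of the 10 genes, by cell class and library, with exact binomial 95% intervals. For at least 5 genes the mesenchymal bars stand at 47.3, 2.33, 52.6 and 53.9%, and the erythroid bars stay below 1%.

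Signs of RNA quality, depth and other cell types were read beside these levels. The summed level of the 10 genes was 2174, 504, 2472 and 2465 CPM in mesenchymal, 1723, 959, 1566 and 1701 in epithelial, 738, 415, 796 and 617 in hematopoietic and 998, 548, 1390.0 and 1250.0 in endothelial cells, and 129, 60.2, 57.2 and 56.3 CPM in erythroid cells. In erythroid cells the Tbx1+/+ carrier library was highest, and neither drug library was above the Tbx1neo2/neo2 carrier library on this scale. Hemoglobin transcripts took up 855100, 828400, 856800 and 902400 CPM of the erythroid sums. The erythroid levels of other genes depend on that share, so these sums are not set against those of the 4 classes. The mitochondrial share of UMIs was highest in the Tbx1neo2/neo2 carrier library in each of the 4 classes, at 5.30, 5.49, 4.97 and 5.07% in mesenchymal and 4.17, 5.20, 3.88 and 4.47% in endothelial cells. When the cells of each class and library were split into 3 equal groups by that share, the sum of the 10 genes was lowest in the Tbx1neo2/neo2 carrier library in 12 of 12 groups with intervals apart. In mesenchymal cells it was 474, 517 and 529.6 CPM in the groups of that library, from the lowest to the highest share, and 2116, 2290.0 and 2120.0 CPM in those of the Tbx1+/+ carrier library. Groups by depth gave the lowest sum in the same library in 12 of 12, in 11 with intervals apart. The hematopoietic cells of lowest depth held the most of the 10 genes in every library, 1145, 969, 1422 and 1141 CPM.

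**Figure D4:**
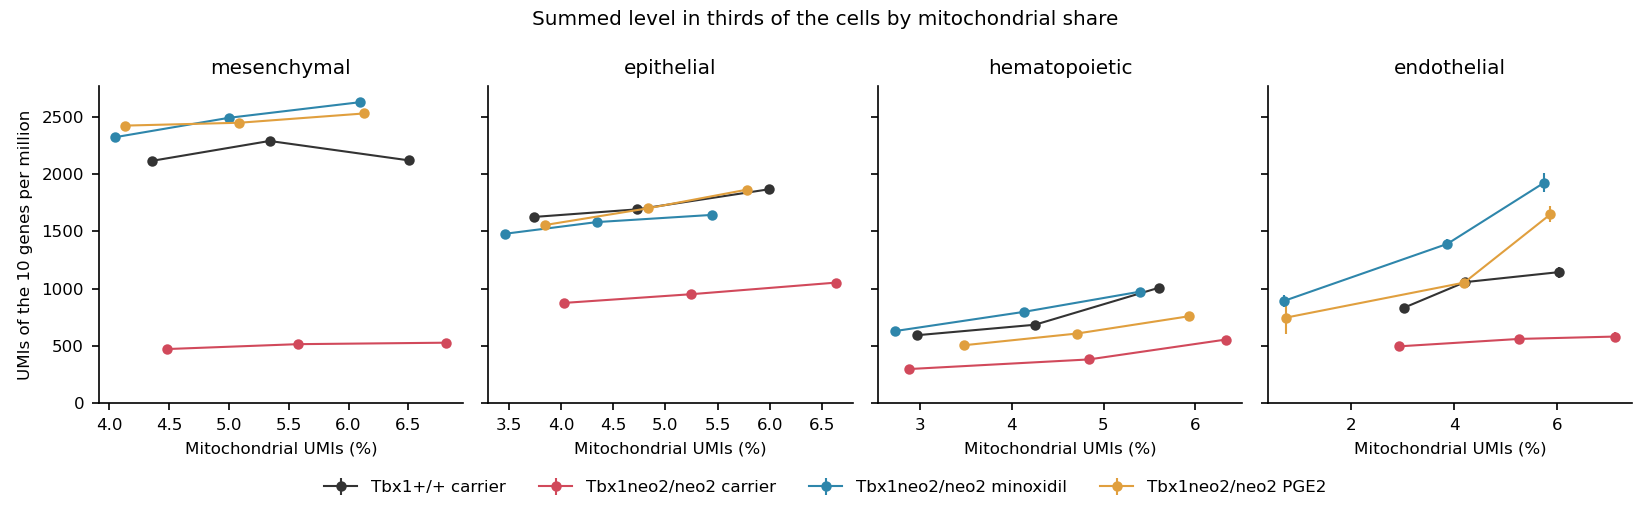
Summed level of the 10 genes (CPM, from 0) against the median mitochondrial share of UMIs (percent) in 3 equal groups of the cells of each class, 1 line per library with Poisson 95% intervals. The Tbx1neo2/neo2 carrier line lies lowest in each class, at 474, 517 and 529.6 CPM in mesenchymal cells, and no group of it reaches the matching group of another library.

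Markers of other cell types also moved with the library. All 9 mesenchymal markers were detected in the other 3 classes of every library, and their sum was 161, 547, 56.0 and 65.7 CPM in epithelial, 291, 626, 234 and 146 CPM in hematopoietic and 266, 1192, 557 and 206 CPM in endothelial cells. It was highest in the Tbx1neo2/neo2 carrier library in each, the library whose own mesenchymal cells held the least of the 10 genes. In mesenchymal cells the summed endothelial markers were at 57.5, 27.0, 48.8 and 45.6 CPM and the hematopoietic ones at 57.6, 36.8, 38.9 and 49.5 CPM, both lowest in that library, while the epithelial ones were at 155, 112, 72.1 and 63.5 CPM. Hemoglobin transcripts were at 1050.0, 2865, 629.7 and 2729 CPM in epithelial and 3800.0, 3017, 175 and 2852 CPM in endothelial cells. The part of these markers, of the mitochondrial share, of depth and of Xist in the levels of the 10 genes was not tested.

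A set of 12 further gene lists was read in the same way, with counts for mesenchymal, epithelial, hematopoietic and endothelial cells in that order. Of the AP-1 subunits, the Fos and Jun proteins that dimerize at TGANTCA sites, 5 of 6, 6 of 7, 5 of 7 and 5 of 6 were lower in the Tbx1neo2/neo2 carrier than in the Tbx1+/+ carrier library, with medians of -1.27, -0.68, -0.96 and -0.77 on the log2 scale, all above the medians of the 10 genes except in hematopoietic cells. Fos had a log2 ratio of -2.99 in mesenchymal cells. Of the other immediate early transcription factors, 9 of 18, 8 of 18, 7 of 17 and 4 of 15 were lower and 0 higher. Klf2, a factor of vessel walls, was at 185, 28.5, 197 and 308 CPM in mesenchymal cells. Of the other early regulators and secreted proteins, 10 of 24, 12 of 24, 6 of 23 and 3 of 22 were lower, among them Ppp1r15a (Gadd34), which restores translation after stress, at 70.7, 20.7, 79.5 and 85.4 CPM in mesenchymal cells, and 2, 0, 2 and 1 were higher.

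The stress and signaling lists are to be read against the 12, 4.75, 2.4 and 3.57% of all genes that were lower and the 11.9, 3.82, 10.9 and 4.03% that were higher for the genotype. Of the heat shock genes and chaperones, 5 of 15, 3 of 15, 0 of 15 and 1 of 13 were lower and none was higher, and medians were -0.22, -0.06, -0.20 and -0.26. Hspb1, a small heat shock protein, and Dnajb1, a co-chaperone of Hsp70, were lower in mesenchymal and epithelial cells, with log2 ratios of -0.62 and -0.80 for Hspb1 and -1.11 and -0.89 for Dnajb1. Summed heat shock transcripts were 8377, 7521, 7446 and 7480.0 CPM in mesenchymal cells. Genes of the integrated stress and unfolded protein responses, the pathways through which Atf4 induces Atf3, gave 2 of 14, 1 of 14, 0 of 14 and 0 of 13 lower and 2, 0, 2 and 0 higher. The p53 targets gave 3 of 12, 3 of 12, 2 of 11 and 1 of 10 lower and 1, 0, 0 and 0 higher. The 14 constantly expressed genes gave 1 lower in each class and 0 higher, with medians of 0.01, -0.07, -0.12 and -0.17.

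Signaling lists next to the 10 genes were mixed. The JAK-STAT3 list, which holds the receptors, inhibitors and targets beside Socs3, gave 7 of 12, 2 of 12, 0 of 11 and 2 of 9 lower and 1, 0, 2 and 0 higher, and Il6st, the gp130 receptor chain, was lower in mesenchymal cells alone, with a log2 ratio of -0.67. The ERK feedback list, with other dual specificity phosphatases and Sprouty genes, gave, of 12 genes in each class, 6, 5, 2 and 2 lower and 0, 0, 0 and 0 higher. Dusp2, a nuclear phosphatase of activated lymphocytes, was lower in all 4 classes, with log2 ratios of -1.26 in hematopoietic and -1.34 in endothelial cells. The list of cAMP response genes and PGE2 receptors gave 3 of 10, 2 of 10, 5 of 10 and 0 of 6 lower and 2, 0, 0 and 0 higher, and with PGE2 against the Tbx1neo2/neo2 carrier library 2, 0, 0 and 0 lower and 3, 1, 5 and 0 higher of the same numbers. Of the known tristetraprolin targets, a list that also holds Ier3, 5 of 6, 2 of 5, 5 of 8 and 2 of 3 were lower and 0, 1, 2 and 0 higher. Zfp36, whose product destabilizes them, was itself called lower in all classes but the hematopoietic one, whose class sums gave -0.58. Cxcl1, a neutrophil chemokine, was at 38.3, 1.43, 30.6 and 55.6 CPM in mesenchymal cells. Nuclear retained RNAs, a list of 5 with Malat1 and Xist, gave 1, 1, 0 and 2 lower and 1, 2, 2 and 1 higher, and Malat1 was at 9782, 11210.0, 9942 and 11590.0 CPM in mesenchymal cells.

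Against the Tbx1neo2/neo2 carrier library, AP-1 subunits were higher with minoxidil for 6 of 6, 3 of 7, 4 of 6 and 5 of 6 and with PGE2 for 6 of 6, 5 of 7, 5 of 7 and 4 of 6 in the 4 classes, and the other early transcription factors for 12 of 18, 8 of 18, 5 of 17 and 8 of 15 and 10 of 17, 8 of 18, 5 of 17 and 8 of 15. Heat shock genes were higher for 4 of 15, 3 of 15, 2 of 15 and 3 of 14 with minoxidil and 5 of 15, 2 of 15, 0 of 15 and 2 of 12 with PGE2. Of all genes, 12.6, 3.88, 3.09 and 5.26% were higher with minoxidil and 11.5, 3.37, 3.19 and 5.45% with PGE2. Pgk1, a glycolytic enzyme counted among the constantly expressed genes, was higher in all 4 classes with minoxidil.

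**Figure D5:**
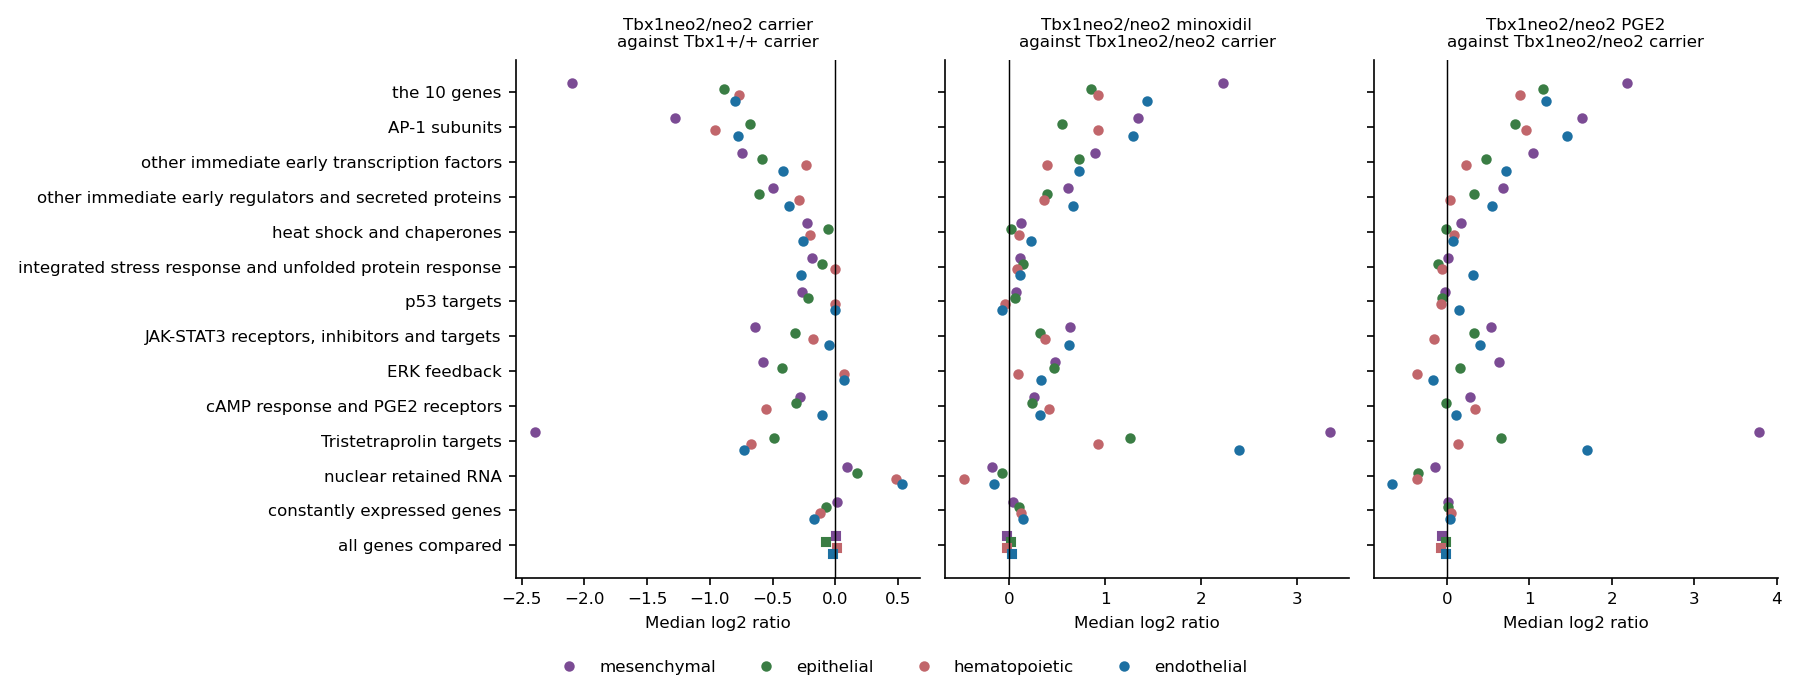
Median log2 ratio of the 10 genes, of 12 other gene lists and of all genes compared (squares), by cell class (colours), for the Tbx1neo2/neo2 carrier against the Tbx1+/+ carrier library and for each drug library against the Tbx1neo2/neo2 carrier library. The 10 genes stand at -2.10 in mesenchymal cells on the left, the constantly expressed genes at 0.01, and the squares lie near 0.

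The genes whose pattern was most like the mean of the 10, over the 16 values of 4 classes and 4 libraries and among 8524 genes with a mean of at least 10 CPM, were Junb (Pearson r = 0.938 on the log2 scale), Fos (0.933), Ppp1r15a (0.900), Nfkbiz (0.882) and Cxcl1 (0.870). The 16 points share libraries, depth and classes and are not independent, and r is a description. Among the 10 genes themselves, r with the mean was from 0.961 for Btg2, 0.954 for Atf3 and 0.917 for Socs3 down to 0.479 for Dusp1 and -0.139 for Ier3, the members of the mean being part of it. Ier3 thus had the lowest r of the 10. The measure mixes the order of the classes with the differences between the libraries. Dusp1, with r of 0.479, was lowest in the Tbx1neo2/neo2 carrier library in each class.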

How the data were processed

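Thymic lobes of 4 conditions, 1 library each, were measured by droplet single-cell RNA sequencing. The deposited tables hold raw UMI counts by gene and cell barcode. Per the submitters' processing notes, the authors used Cell Ranger 5.0.1, the mm10 build and Seurat. Whether intronic reads were included and how strand was used were not given in the sources used here. The groups were taken from the sample labels.

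Cells under 200 genes or over 10% mitochondrial UMIs were dropped, and the rest were integrated by canonical correlation in Seurat 5.3.0 (R 4.3.3) over 2000 variable genes and 30 dimensions, at resolution 0.3. The 10 genes, all gene lists, and mitochondrial, ribosomal and sex-linked genes were left out of the variable genes. This gave 20 clusters, of which 7 were joined as mesenchymal, 4 as epithelial, 3 as hematopoietic, 1 as endothelial and 2 as erythroid, and 3 stayed unnamed and were left out. Class names were rebuilt from markers and may differ from those of the study. Doublets were kept. Scrublet (scanpy 1.11.5) called 4.94, 0, 2.19 and 1.81% of cells in the Tbx1+/+ carrier, Tbx1neo2/neo2 carrier, minoxidil and PGE2 libraries, so it did not work in the second, and removing the called cells was an alternative.

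UMI counts were summed per class and library and scaled to 1000000. Intervals were exact Poisson for levels, conditional binomial for ratios and Clopper-Pearson for shares (scipy 1.17.1). There was no test across samples. The call rule was tried on Poisson counts drawn from the class means, the same model that the intervals assume. That trial tells nothing of variation between cells, embryos or libraries. All 10 genes are named, with at most 2 called genes per other list, class and comparison that reached 50 CPM, taken by absolute log2 ratio, and the 5 genes most like the mean of the 10. The 12 other lists were AP-1 subunits, other immediate early transcription factors, other early regulators and secreted proteins, heat shock genes, integrated stress response, p53 targets, JAK-STAT3, ERK feedback, cAMP response and PGE2 receptors, tristetraprolin targets, nuclear retained RNA and constantly expressed genes. The 10 genes and the lists were chosen with earlier results of these data known. Alternatives covered the mitochondrial limit, class assignment, resolution, integration, scaling (TMM, edgeR 4.0.16), cell and cluster weighting, thinning, doublets, fold and the count filter.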

Additional observations from a re-analysis of the deposited data

Results flagged for a closer look

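Ier3 differed in direction between clusters under the same contrast. In each case the 95% counting intervals lay apart at 1.5-fold or more in both directions, there was 1 library per condition, and the difference between clusters was not tested. For the Tbx1neo2/neo2 carrier against the Tbx1+/+ carrier library, the log2 ratio was 0.725 in cluster 4 and 0.927 in cluster 6, both mesenchymal, with Col3a1, Lum, Acta2 and histone genes leading cluster 4 and Eln, Acta2 and Tagln leading cluster 6. It was -0.861 in cluster 0 and -0.968 in cluster 17, both lymphoid, -1.149 in cluster 8 (bipotent TEC-like), -0.758 in cluster 11 (hematopoietic) and -0.727 in cluster 13 (endothelial).

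For minoxidil against the Tbx1neo2/neo2 carrier library, Ier3 was at -0.602 in cluster 2 (capsular fibroblast-like) and -0.908 in cluster 6. It was at 0.939 in cluster 0, 1.114 in cluster 1 and 0.923 in cluster 9 (both cTEC-like), 1.482 in cluster 8, 1.076 in cluster 11 and 1.123 in cluster 13. For PGE2 against the same library, it was at -0.94 in cluster 2, and at 0.762 in cluster 1, 0.629 in cluster 8 and 1.643 in cluster 11. Both drug contrasts share the Tbx1neo2/neo2 carrier library. Over these 19 contrasts, 2.44 to 14.6% of all genes were called in the same direction.

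In cluster 4 Ier3 stood at 9.67, 15.99, 15.4 and 21.0 CPM in the Tbx1+/+ carrier, Tbx1neo2/neo2 carrier, minoxidil and PGE2 libraries, and in cluster 6 at 23.6, 44.8, 23.9 and 40.1 CPM. In cluster 11 it stood at 93.7, 55.4, 117 and 173 CPM.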

How the results depend on the processing

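Under 13 alternatives the direction of the counts over 40 pairs of gene and class held for the genotype and for each drug against the Tbx1neo2/neo2 carrier library. The number lower in the Tbx1neo2/neo2 carrier than in the Tbx1+/+ carrier library was 34 and ran from 20, with calls made at 2-fold, to 37. The number higher was 0, and 1 with a mitochondrial limit of 5%, which was Ier3 in mesenchymal cells. Against the Tbx1neo2/neo2 carrier library the number higher ran from 26 to 36 with minoxidil and from 25 to 32 with PGE2, and the number lower was 0 throughout. Against the Tbx1+/+ carrier library, a contrast chosen after seeing the data, minoxidil gave 0 to 7 higher and 0 to 1 lower, and PGE2 gave 1 to 5 higher and 0 to 4 lower, with 2 higher and 3 lower as reported, 4 and 0 when thinned to 5000 UMIs and 5 and 1 when averaged over cells. Endothelial Ier3 with PGE2 against that library turned to 0.227 on the log2 scale when averaged over cells, and the cause was not tested. Of single pairs, 28 lost their call at 2-fold and 10 when cells were thinned to 5000 UMIs. Weighting by cell or cluster used the fold alone. Shares of positive cells moved with the number of UMIs per cell, in 182 of 200 values without thinning and 177 at 2000 UMIs. No paired analysis was possible because each condition had 1 library. The endothelial class held the fewest cells of the 4 classes, 99 and 101 in the drug libraries.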
